A study of Mus musculus with 28 samples.

Results

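A set of 10 antimicrobial and alarmin genes was followed through 28 libraries of gastric corpus cells from villin-PPARD mice and their WT littermates. They are the alarmins S100a8 and S100a9, the serum amyloid genes Saa1 and Saa3, the siderophore-binding lipocalin Lcn2, the lectins Reg3b, Reg3g and Sftpd, and the enzymes Lyz2 and Pla2g2a. These 10 symbols were looked up in the pooled count table, which lists 49492 genes, and all 10 are in it. Of the 10, 9 passed the count filter and could be tested. Saa1 had at most 5 counts in a library and was not tested.

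Each library came from the epithelial cells of 1 mouse, scraped by hand from the corpus, the acid-secreting body of the stomach. The villin-PPARD mice carry a transgene for PPARD, a lipid-activated nuclear receptor, under the villin promoter, whose usual site of activity is the epithelium of the intestine. The WT mice are their littermates. Each genotype had 5 mice aged 10 weeks, 4 aged 25 weeks and 5 aged 55 weeks. Neither strain nor sex is given in the labels. No agent was given to any group, as far as the labels say.

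Antimicrobial proteins of a mucosa act at its surface. S100A8 and S100A9 form calprotectin, which withholds zinc and manganese from microbes and signals danger when it is released, and neutrophils are its best known source. Lipocalin-2 binds the siderophores with which bacteria gather iron. REG3 lectins bind the cell wall of bacteria, and in the gut they are made by the epithelium when interleukin-22 signals through STAT3. Serum amyloid A proteins carry retinol and lipid and belong to the acute-phase response, with Saa3 the form made mostly outside the liver. Surfactant protein D, the product of Sftpd, is a collectin that gathers microbes at lung and other mucosal surfaces. Lysozyme and the group IIA phospholipase A2 cut the bacterial wall and membrane. Lyz2 is the lysozyme of macrophages and other myeloid cells, and Lyz1 that of Paneth cells.

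Total counts ranged from 10982888 to 30891108 per library. Levels are given in CPM, counts relative to a library total corrected by edgeR's TMM factor, and a pair of values joined by ± is a mean and SD over mice unless SE is written. On that scale 3 counts, the limit that a count of 0 allows, amounted to 0.0784 to 0.313 CPM depending on the library. Ppard itself stood at 74.1 ± 8.18 CPM in WT and 110 ± 9.56 CPM in villin-PPARD mice at 10 weeks (n = 5 each). The gap was smaller later, with 73.2 ± 9.05 and 90.6 ± 8.73 CPM at 25 weeks (n = 4 each). At 55 weeks the means were 79.4 ± 5.42 and 93.3 ± 7.30 CPM (n = 5 each). The counts do not separate transgene from endogenous reads. The epithelial marker Epcam was found in every group, with means between 249 and 661 CPM. Pgc, the pepsinogen of chief cells, fell from 51078 CPM in WT to 683 CPM in villin-PPARD mice at 55 weeks. In bulk libraries such as these, fewer cells of a type and less RNA per cell cannot be told apart. At 10 weeks the counts of WT replicates 2 and 3 differed by less than those of any other pair in a group, with a chi-square per degree of freedom of 4.28 against 15.13 or more, and they were kept as separate mice. The column names of the table put the libraries in a first group (replicates 1 to 3 of 10 weeks and the 25-week mice, except WT replicate 3, which is marked as a replacement) and a second group (replicates 4 and 5 of 10 weeks and the 55-week mice), and do not say what the groups are. At 10 weeks, where both groups are present, comparisons were repeated within each.

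Several members lie close together in the genome, and the stretches before their starts are shown for comparison. Shown are S100a8 with S100a9, and Reg3b with Reg3g of the same cluster, which were all called higher at 55 weeks. Saa3 is shown too, and Saa1, which lies close to it, was too scarce to test. Positions are from GENCODE on GRCm38. S100a8 (ENSMUSG00000056054, plus strand, chr3:90668978-90670035) and S100a9 (ENSMUSG00000056071, minus strand, chr3:90692632-90695721) lie next to each other. Reg3b (ENSMUSG00000071356, plus strand, chr6:78370657-78373466) and Reg3g (ENSMUSG00000030017, minus strand, chr6:78466269-78468872) bound a cluster that also holds Reg3d, Reg3a and Reg1. Saa3 (ENSMUSG00000040026, minus strand, chr7:46711998-46715700) lies close to Saa1 (chr7:46740497-46742980) and Saa2. The sequences are RefSeq promoter windows of GRCm38.p6, printed from 5′ to 3′ on the strand of the gene and cut to the longest stretch outside annotated exons. RefSeq and GENCODE do not place every start alike. The printed stretch of Reg3b, and the window of Lcn2, lie before the RefSeq start but inside the GENCODE gene. Capitals mark matches to the motifs named after them.
Reg3b, chr6:78370707-78370860, plus strand
Reg3b: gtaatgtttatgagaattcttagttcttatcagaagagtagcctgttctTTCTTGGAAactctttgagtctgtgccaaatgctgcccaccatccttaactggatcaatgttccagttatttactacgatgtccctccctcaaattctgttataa
Reg3g, chr6:78468875-78469124, minus strand
Reg3g: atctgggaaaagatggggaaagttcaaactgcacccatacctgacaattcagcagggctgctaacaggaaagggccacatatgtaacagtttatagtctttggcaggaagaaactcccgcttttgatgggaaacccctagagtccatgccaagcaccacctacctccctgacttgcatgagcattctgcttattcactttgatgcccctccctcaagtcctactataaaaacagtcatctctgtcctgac
S100a8, chr3:90668821-90668977, plus strand
S100a8: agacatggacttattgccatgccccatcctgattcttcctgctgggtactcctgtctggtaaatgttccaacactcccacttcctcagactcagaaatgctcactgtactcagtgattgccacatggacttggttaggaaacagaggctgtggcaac
S100a9, chr3:90695722-90695971, minus strand
S100a9: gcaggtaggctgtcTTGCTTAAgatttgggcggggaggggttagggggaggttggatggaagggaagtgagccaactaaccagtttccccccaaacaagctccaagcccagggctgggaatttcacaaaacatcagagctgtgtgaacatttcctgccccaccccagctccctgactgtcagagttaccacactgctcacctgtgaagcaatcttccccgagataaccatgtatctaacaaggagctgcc
Saa3, chr7:46715701-46715926, minus strand
Saa3: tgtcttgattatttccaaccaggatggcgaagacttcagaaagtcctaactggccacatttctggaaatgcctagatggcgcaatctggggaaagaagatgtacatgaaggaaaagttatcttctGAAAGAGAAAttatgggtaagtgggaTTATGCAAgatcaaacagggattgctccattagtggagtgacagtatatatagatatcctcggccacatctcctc

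The windows of Reg3b and Reg3g were 68.9% identical over their aligned columns, while 4 other pairs of member windows, S100a8 with S100a9 and Saa1 with Saa3 among them, lay between 46.7% and 52.2%. A set of 5 motifs was searched on both strands of the 250 bases before the RefSeq start, in the 8 members that had a window, and their letters can overlap. The STAT palindrome TTCNNNGAA was found in 1 member, Reg3b, 129 bases before its RefSeq start and after its GENCODE start, and in 7.02% of 32851 windows. The C/EBP letters TTGCNNAA were found in 4 members, Lcn2, S100a9, Saa1 and Saa3, and in 9.56% of windows. The IRF pair, GAAA repeated after 2 free bases, was found in Saa3 alone and in 2.98% of windows. The NF-kB letters, GGG and TTCC around 3 free bases, were in 4.65% of windows, and the PPAR direct repeat, AGGTCA repeated after 1 free base, in 0.0335%, and neither was in a member's window. These are matches of letters, and no binding was measured. Sftpd and Pla2g2a had no window in the table.

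**Figure D1:**
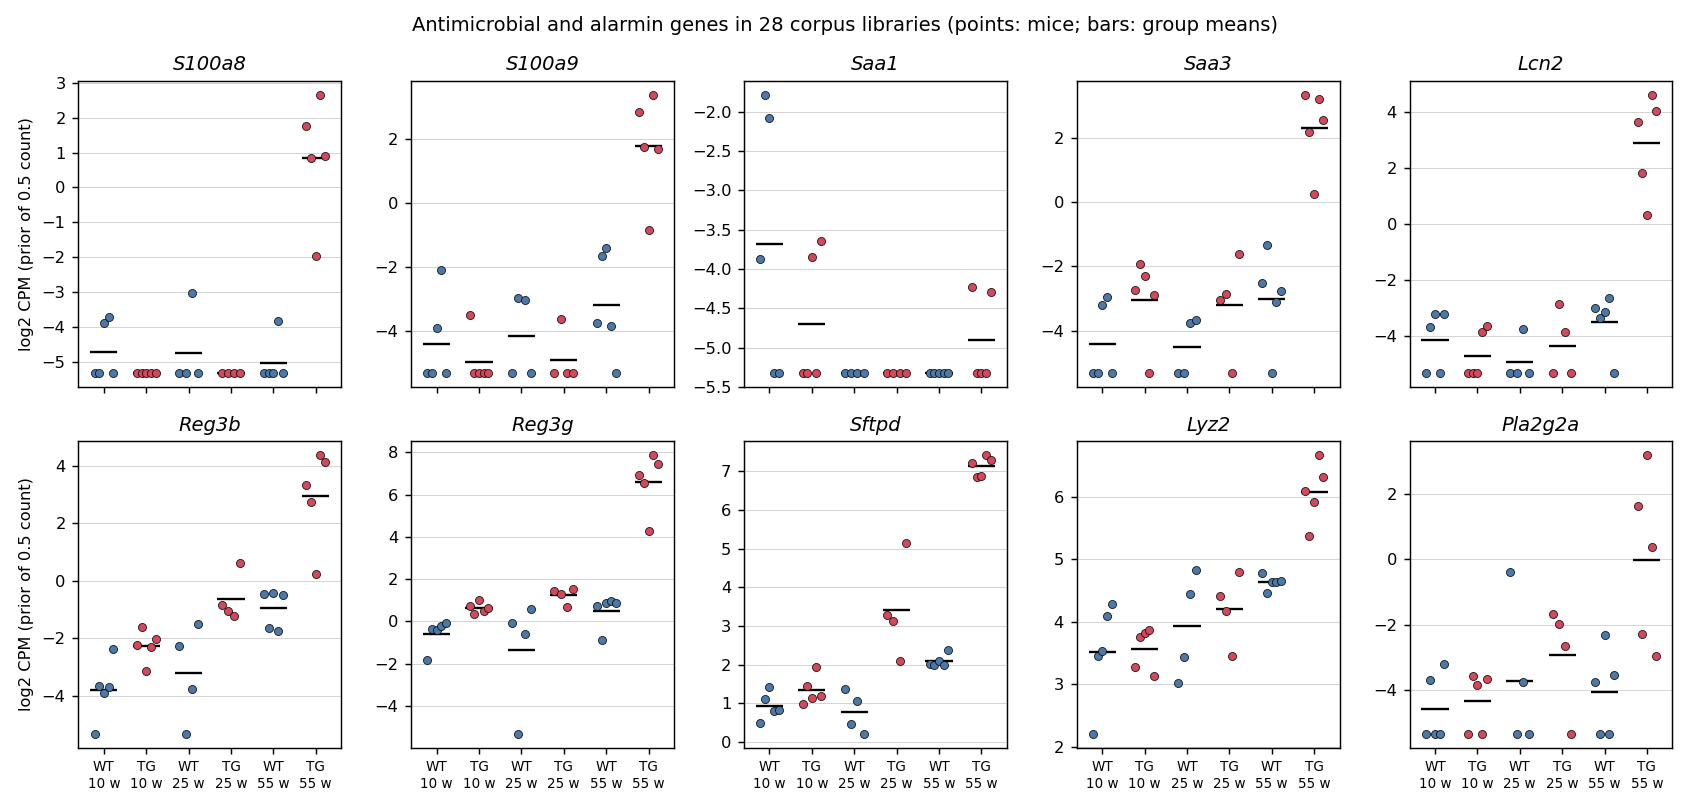
Level of each of the 10 genes in the 28 libraries, as log2 CPM with a prior of 0.5 count, for WT (blue) and villin-PPARD (red) mice at 10, 25 and 55 weeks (w). Points are mice, bars are group means, and TG stands for villin-PPARD. Points at the foot of a panel are counts of 0, except for Sftpd and Lyz2, which had counts in every library. In 8 of 10 panels every 55-week villin-PPARD library lies above every WT library of that age, the exceptions being Saa1 and Pla2g2a.

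At 10 weeks the comparison of genotypes asked whether the transgene came with a different antimicrobial profile in young mice. None of the 9 tested members passed an adjusted p of 0.05 in edgeR's quasi-likelihood test, against 34% of all 15812 genes tested. The count was 0 at an unadjusted p under 0.05 as well, and 0 by DESeq2 and by limma-voom. Among the tested members 5 were at or close to nothing in both genotypes: S100a8, S100a9, Saa3, Lcn2 and Pla2g2a had between 0 and 12 counts summed over a group of 5 mice. S100a8 had 2 counts over the WT mice and 0 over the villin-PPARD mice. Saa1 had 11 counts over the WT and 2 over the villin-PPARD mice, all 11 of them in replicates 1 to 3.

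Reg3g was the only member whose groups did not overlap at this age, and neither REG3 lectin passed the test. Reg3g lay at 0.26, 0.742, 0.721, 0.834 and 0.924 CPM in the 5 WT mice and at 1.64, 1.26, 1.96, 1.36 and 1.54 CPM in the 5 villin-PPARD mice. Every villin-PPARD library was above every WT library. Such separation in the higher direction was found for 14.5% of all genes. The log2 difference was 1.22 ± 0.67 (SE), with an adjusted p of 0.1706 by edgeR's quasi-likelihood test. A two-sided exact permutation test of the 5 against 5 values gave 0.00794, the smallest p this design allows, unadjusted and 1 of 30 such tests run over members and ages. Within the first library group the log2 difference was 1.54 with an edgeR adjusted p of 0.06752 and within the second 0.73 with 0.7954. In a fit of these 10 libraries alone the edgeR adjusted p of Reg3g was 0.004153. Reg3b ran from 0 to 0.168 CPM in WT and from 0.0891 to 0.3 CPM in villin-PPARD mice, 5 against 18 counts in all, and the groups overlapped (exact permutation p = 0.0159, unadjusted).

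Sftpd and Lyz2 were well counted at 10 weeks and did not pass the test. Sftpd stood at 1.92 ± 0.47 CPM in WT and 2.58 ± 0.74 CPM in villin-PPARD mice (n = 5 each), a log2 difference of 0.43 ± 0.45 (SE). For Lyz2 the means were 12.7 ± 5.79 and 12.1 ± 2.74 CPM, a log2 difference of -0.04 ± 0.34 (SE). The WT mice spread more widely in Lyz2, from 4.59 to 19.4 CPM, than the villin-PPARD mice, from 8.69 to 14.6 CPM. WT mice of the first library group ran from 4.59 to 11.6 CPM and those of the second from 17.0 to 19.4 CPM. The log2 difference of Lyz2 was 0.51 ± 0.50 (SE) within the first group and -0.63 ± 0.32 (SE) within the second. For Sftpd it was 0.19 ± 0.73 (SE) and 0.83 ± 0.30 (SE), and none of these was called.

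At 25 weeks Sftpd was the member that rose, 7.75-fold in the fit. Its 4 WT libraries held 2.57, 1.35, 2.06 and 1.13 CPM, and its 4 villin-PPARD libraries 9.75, 8.67, 4.26 and 35.2 CPM. The groups did not overlap, and villin-PPARD replicate 4 was the highest by a wide margin. The log2 difference was 2.95 ± 0.46 (SE), with an edgeR adjusted p of 2.528e-05, and 2.03 without that replicate. That made 1 of 9 tested members called, against 39.6% of all genes, 21% in the higher and 18.6% in the lower direction. At an unadjusted p under 0.05 the count was 3, by DESeq2 3 and by limma-voom 1. With library size alone as the scale the median log2 difference of all genes at this age was 0.15, against -0.01 under TMM. The higher share of called genes went from 53% to 74.5%, with the same member called.

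Reg3b and Reg3g were next in order at 25 weeks. Reg3b was found at 0.183, 0, 0.0491 and 0.323 CPM in WT and at 0.526, 0.456, 0.404 and 1.49 CPM in villin-PPARD mice. Reg3g was found at 0.917, 0, 0.638 and 1.46 CPM in WT and at 2.68, 2.45, 1.57 and 2.9 CPM in villin-PPARD mice. In both genes all 4 villin-PPARD values exceeded all 4 WT values, as did 14.9% of all genes. The log2 differences were 2.09 ± 0.93 (SE) for Reg3b and 1.49 ± 0.71 (SE) for Reg3g, with edgeR adjusted p-values of 0.07649 and 0.09602. By DESeq2 both were past the threshold, with adjusted p-values of 0.02229 and 0.02019, and by limma-voom neither was. The exact permutation p was 0.0286 for each, the smallest that 4 against 4 mice can give.

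The other members did not pass the test at 25 weeks. S100a8, S100a9, Saa3 and Lcn2 had at most 8 counts over any group of 4 mice, so that no difference was detectable at this depth. Pla2g2a had 13 counts in each genotype, 12 of the WT counts in replicate 1. Lyz2 stood at 17.3 ± 9.55 CPM in WT and 19.5 ± 7.07 CPM in villin-PPARD mice (n = 4 each), and the ranges overlapped.

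**Figure D2:**
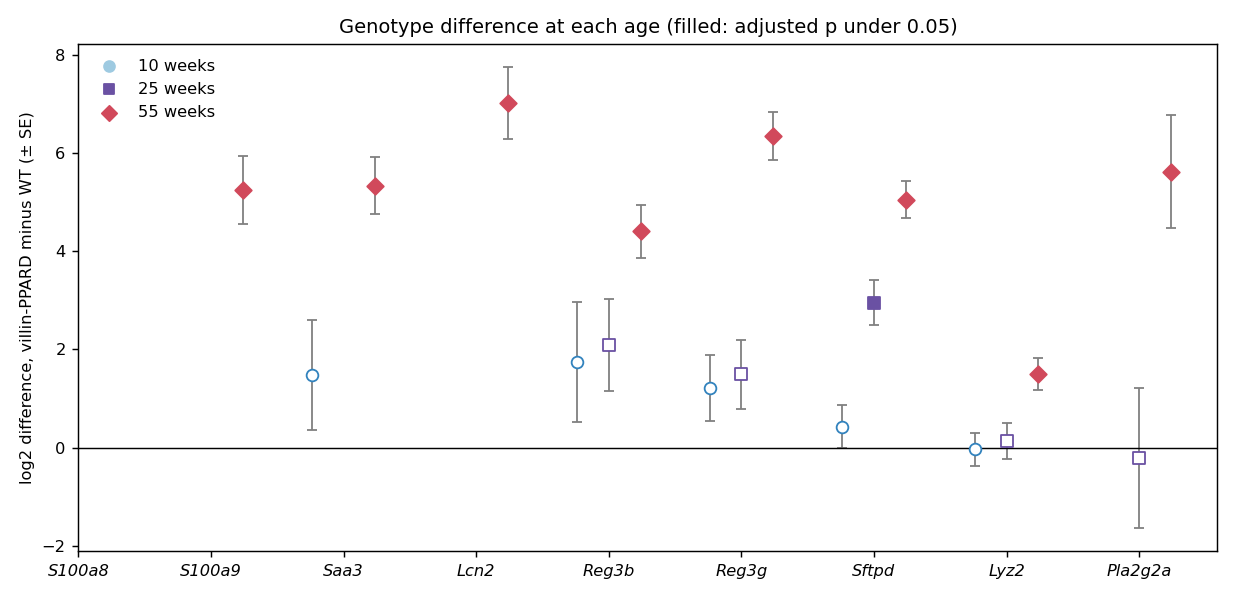
Log2 difference between villin-PPARD and WT mice at 10 weeks (circles), 25 weeks (squares) and 55 weeks (diamonds) for the 9 tested members, from the edgeR fit, with bars of ± 1 SE. Filled symbols have an adjusted p under 0.05, and a symbol is left out where either group had 3 counts or fewer, which removes S100a8 at every age. Of the 55-week symbols shown Lyz2 is the lowest and Lcn2, at 7.03, the highest, and Sftpd has the only filled symbol before 55 weeks.

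At 55 weeks the 9 tested members were all higher in villin-PPARD mice, from 2.82-fold for Lyz2 to 131-fold for Lcn2 in the fit, with S100a8 set apart by its single WT count. Of all 15812 genes 59.3% were called at this age, with 31.7% higher and 27.6% lower. Of the 9, 5, namely S100a8, S100a9, Saa3, Lcn2 and Pla2g2a, passed the count filter only through the 55-week villin-PPARD libraries, so that they could not have been tested without being high there, and the count of 9 is no support of its own. The other 4, Reg3b, Reg3g, Sftpd and Lyz2, also passed it without those libraries. In 8 of the 9 every villin-PPARD value lay above every WT value, as for 23.9% of all genes. With library size alone as the scale the median log2 difference of all genes was 0.43, against 0.03 under TMM. The higher share of called genes went from 53.4% to 78.9%, and the 9 members were still called higher. By DESeq2 and by limma-voom the 9 were called as well.

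The alarmins went from near 0 to a low but countable level. S100a8 had counts of 0, 0, 0, 1 and 0 in the WT mice and 119, 39, 6, 168 and 70 in the villin-PPARD mice. The ratio of scaled counts was 225, with a 95% counting interval of 40.2 to 8924 that rests on the single WT count. S100a9 stood at 0.05, 0.296, 0.356, 0.0453 and 0 CPM in WT and at 7.21, 3.37, 0.539, 10.4 and 3.19 CPM in villin-PPARD mice. Replicate 3 was lowest and replicate 4 highest for both alarmins, and in S100a9 replicate 3 was only just above the highest WT mouse. For S100a9 the log2 difference was 5.25 ± 0.70 (SE), with an edgeR adjusted p of 2.813e-07.

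Among the acute-phase members only Saa3 was found in quantity. It stood at 0.15, 0.37, 0, 0.0905 and 0.123 CPM in WT and 9.97, 4.46, 1.15, 9.13 and 5.83 CPM in villin-PPARD mice. The lowest villin-PPARD value was again that of replicate 3, and it exceeded every WT value. On the log2 scale the difference was 5.34 ± 0.57 (SE), with an edgeR adjusted p of 4.978e-09. Saa1 had 0 counts over the 5 WT and 2 over the 5 villin-PPARD mice, both totals under the floor of 3 counts. Of the 75-base words of Saa1, 18.5% also occur in Saa2, so some reads may match both genes, and how such reads were counted is not given. Saa2 had 0 counts in both groups.

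Lcn2 showed the largest fitted difference of the members with more than 3 counts in both groups. Its WT libraries held 0.1, 0.0739, 0.0891, 0.136 and 0 CPM, 7 counts in all. Its villin-PPARD libraries held 12.6, 3.5, 1.23, 24.5 and 16.6 CPM, 1848 counts in all. Replicates 4 and 5 were highest and replicate 3 lowest, a spread of 19.9-fold within the group. The log2 difference was 7.03 ± 0.73 (SE), with an edgeR adjusted p of 5.331e-09, and the ratio of scaled counts was 148 with a 95% counting interval of 71.7 to 369.

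Of the lectins, Reg3g rose most. Reg3g went from 1.65, 0.517, 1.78, 1.9 and 1.78 CPM in WT to 122, 93.7, 19.3, 233 and 173 CPM in villin-PPARD mice. Even the lowest villin-PPARD library was more than any WT library, and replicate 3 was again far below its group. The log2 difference was 6.36 ± 0.50 (SE), with an edgeR adjusted p of 5.801e-11. Reg3b, of the same cluster and with the similar promoter, went from 0.531 ± 0.227 to 11.2 ± 7.90 CPM (n = 5 each). Its log2 difference was 4.41 ± 0.54 (SE), with an edgeR adjusted p of 1.015e-07.

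Sftpd differed from the other members in how even it was. Its WT libraries held 4.05, 3.92, 4.28, 3.94 and 5.17 CPM and its villin-PPARD libraries 149, 115, 118, 171 and 156 CPM. Within each genotype the 5 mice were close together, and the gap between the genotypes was far wider than either spread. This was a log2 difference of 5.05 ± 0.38 (SE), with an edgeR adjusted p of 2.8e-11.

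The enzymes moved by unequal amounts. Lyz2 rose from 27.6, 22.1, 24.9, 24.8 and 25.2 CPM in WT to 68.5, 41.3, 60.6, 102 and 79.5 CPM in villin-PPARD mice, a 2.82-fold difference in the fit (SE 0.32 on the log2 scale) with an edgeR adjusted p of 0.0002952. The groups did not overlap, but Lyz2 had the smallest change of the 9. Its paralogue Lyz1 shares 5.96% of the 75-base words of Lyz2, so some reads may match both genes. How such reads were counted is not given. Lyz1, looked at after its values were seen, went from 0.19 to 14 CPM (group means), and in single villin-PPARD libraries it amounted to 2.48% to 31.9% of the Lyz2 level. Pla2g2a stood at 0.05, 0, 0.178, 0 and 0.0615 CPM in WT and 3.05, 0.182, 9.01, 1.27 and 0.105 CPM in villin-PPARD mice. It was the 1 tested member whose groups overlapped: replicate 5 lay inside the WT range, and replicate 2 just above it. Its fitted log2 difference was 5.63 ± 1.15 (SE), with an edgeR adjusted p of 0.0001591, and 4.43 without replicate 3 in a fit with no count filter. By limma-voom it was 3.25, with an adjusted p of 0.02734. Pla2g2a overlaps Pla2g5 on the other strand and the library kit does not mark strand, and Pla2g5 had 9 and 34 counts in the 2 groups against 4 and 383 for Pla2g2a.

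**Figure D3:**
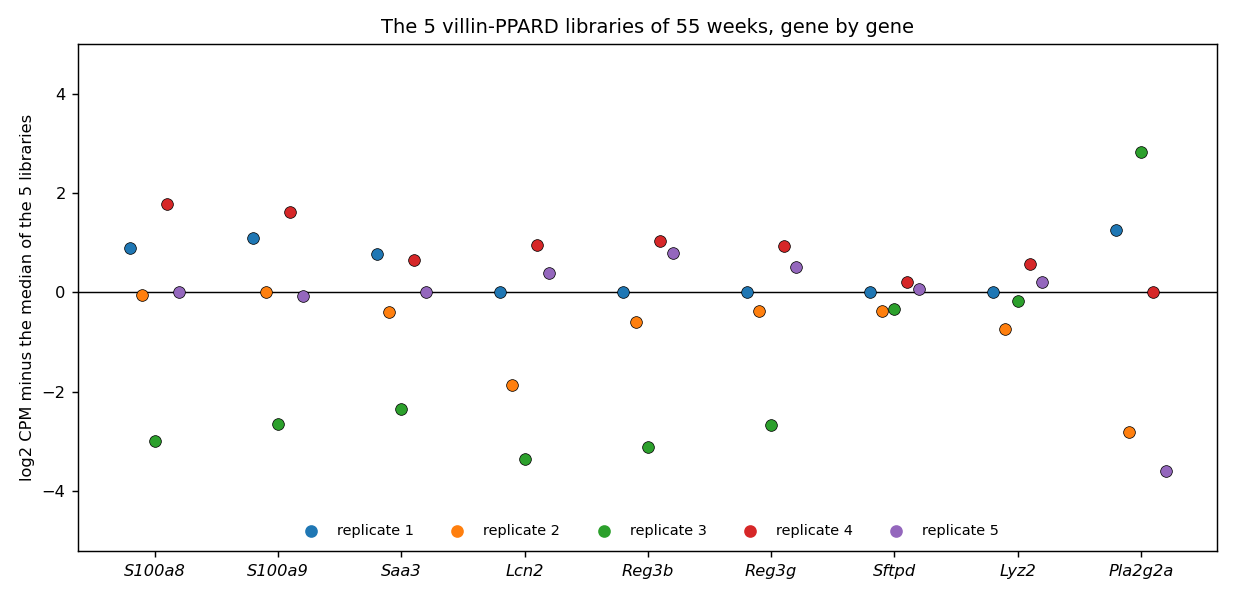
Level of the 9 tested members in each of the 5 villin-PPARD libraries of 55 weeks, as log2 CPM minus the median of the 5 libraries, with 1 colour per replicate. Replicate 3 (green) is the lowest for S100a8, S100a9, Saa3, Lcn2, Reg3b and Reg3g and the highest for Pla2g2a, and the points of Sftpd lie within 0.57 of each other.

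The 5 old villin-PPARD mice were not alike, and the members fell into patterns. Replicate 3 had the lowest level of 6 members, S100a8, S100a9, Saa3, Lcn2, Reg3b and Reg3g, the next to lowest of Sftpd and Lyz2, and the highest of Pla2g2a. Replicate 4 was the highest for 7 members, all but Saa3 and Pla2g2a. The ratio of the highest to the lowest library was 27.1 for S100a8, 19.9 for Lcn2, 19.3 for S100a9, 17.8 for Reg3b, 12.1 for Reg3g and 8.63 for Saa3. It was 86.2 for Pla2g2a, where replicates 2 and 5 were low. For Lyz2 it was 2.46 and for Sftpd 1.49. The median ratio over 15538 genes was 1.43, with a 95th percentile of 4.44, so Sftpd lay close to the median and 7 members varied more than 95% of genes. Low counts widen this ratio, and S100a8 had 6 counts in replicate 3.

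Levels of different genes were compared per length, taken as the merged length of all annotated exons of a gene. That was 2114 bases for Reg3g, 2623 for Lcn2, 2606 for Saa3, 694 for S100a8 and 522 for S100a9. It can exceed the length of the transcript present, so the order depends in part on this choice. In 55-week villin-PPARD mice Reg3g stood at 60.6 ± 38.2 CPM per kilobase, Sftpd at 58.6 ± 10.1 and Lyz2 at 53.4 ± 17.0 (n = 5), and these 3 did not differ beyond their spread. Reg3b followed at 9.78 ± 6.92 and S100a9 at 9.46 ± 7.41 CPM per kilobase, which were alike within their spread. Lcn2 stood at 4.46 ± 3.65, S100a8 at 3.89 ± 3.29, Pla2g2a at 2.93 ± 4.00 and Saa3 at 2.34 ± 1.38 CPM per kilobase, again within the spread of one another. In WT mice of the same age the order was different at the top: Lyz2 stood at 18.9 ± 1.49 CPM per kilobase, Sftpd at 1.77 ± 0.22 and Reg3g at 0.722 ± 0.270, and Reg3b at 0.465 ± 0.199. Lyz2 and Sftpd were each clear of the next, while Reg3g and Reg3b, and Reg3b and S100a9 at 0.286 ± 0.314, lay within the spread of one another. Lyz2 was also first in both genotypes at the 2 younger ages.

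Age was compared within each genotype. In WT mice no member was called from 10 to 25 weeks by edgeR, at an unadjusted p under 0.05, by DESeq2 or by limma-voom, and 2 genes in all were called, 0.0126%. From 10 to 55 weeks 2 members were called higher in WT mice, against 12.7% of genes, 6.43% higher and 6.26% lower. Groups that did not overlap were found for 5.89% of genes in the higher and 5.47% in the lower direction. Reg3b rose from 0.0631 ± 0.0625 to 0.531 ± 0.227 CPM, a log2 difference of 3.18 ± 1.04 (SE) with an edgeR adjusted p of 0.04335. Lyz2 rose 1.99-fold in the fit, from 12.7 ± 5.79 to 24.9 ± 1.96 CPM, with an edgeR adjusted p of 0.04998. Both lie close to the threshold. Each was lost in 8 of the 10 fits that left out 1 library, Reg3b at adjusted p-values up to 0.107 and Lyz2 up to 0.1236. Within the second library group, which holds 2 WT mice of 10 weeks and the 5 of 55 weeks, neither was called, with log2 differences of 2.35 and 0.45, while Sftpd was, with 1.29 and an edgeR adjusted p of 0.0248.

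Among villin-PPARD mice Sftpd was the member called from 10 to 25 weeks, and the 9 tested members were called by 55 weeks. From 10 to 25 weeks 1 of 9 was called, against 2.81% of genes, 1.99% higher and 0.822% lower, while groups that did not overlap made up 4.96% higher and 4.17% lower. The member was Sftpd, with a log2 difference of 2.43 ± 0.39 (SE) and an edgeR adjusted p of 0.004167. Within the first library group, 3 mice against 4, Sftpd gave 2.64 with an adjusted p of 0.1478, and in a fit of the 2 groups alone 2.45 with 0.05189. Reg3b did not overlap between these ages either, at 0.0891 to 0.3 and 0.404 to 1.49 CPM, and gave 1.80 with an edgeR adjusted p of 0.1885 (0.03433 unadjusted). For Sftpd villin-PPARD replicate 4 of 25 weeks carried part of the difference, which was 1.53 without it. From 10 to 55 weeks the 9 tested members were called higher, against 51.7% of genes and 27.2% in the higher direction. As between the genotypes, 5 of the 9 could be tested only through the 55-week villin-PPARD libraries, so nothing is read from that count. Reg3g gave 6.36 ± 0.49 (SE), Sftpd 5.76 ± 0.39 (SE) and Lyz2 2.53 ± 0.34 (SE) on the log2 scale, and within the second library group they gave 6.46, 5.51 and 2.58. The 9 were called within that library group too, with Pla2g2a nearest the threshold at an edgeR adjusted p of 0.04077. The 55-week mice are all in the second library group and the 25-week mice are not, so between these 2 ages age and library group cannot be told apart. These comparisons share their 10-week mice with those between the genotypes.

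Whether the genotype difference itself changed with age was tested as an interaction. From 10 to 55 weeks it grew for 6 of 9 tested members, against 36.4% of genes called and 18.4% in the higher direction. Of the 6, S100a8, S100a9 and Lcn2 could be tested only through the 55-week villin-PPARD libraries, so nothing is read from the count. Reg3g gained 5.14 ± 0.94 (SE), Sftpd 4.62 ± 0.58 (SE) and Lyz2 1.54 ± 0.46 (SE) on the log2 scale, with edgeR adjusted p-values of 0.0001154, 8.227e-07 and 0.01123. These 3 were called in each of the 20 fits that left out 1 library, but Lyz2 was lost without both 10-week replicates 4 and 5, at 1.06 with an edgeR adjusted p of 0.1353. Within the second library group Sftpd gave 4.22 and Lyz2 2.13, both called, and Reg3g 5.62 with an edgeR adjusted p of 0.06394. S100a8, S100a9 and Lcn2 were the other 3, and their fitted values rest on groups with 0 to 5 counts at 10 weeks. Reg3b, whose difference was 1.74 at 10 weeks, 2.09 at 25 weeks and 4.41 at 55 weeks, was not called, with an edgeR adjusted p of 0.2659 from 10 to 55 weeks.

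From 25 to 55 weeks the genotype difference grew for 5 tested members, S100a8, Reg3g, Sftpd, Lyz2 and Pla2g2a, against 28.9% of genes and 14.3% in the higher direction. S100a8 and Pla2g2a could be tested only through the 55-week villin-PPARD libraries, and nothing is read from the count. Reg3g gained 4.86 ± 0.99 (SE) and Sftpd 2.10 ± 0.61 (SE), with edgeR adjusted p-values of 0.0005718 and 0.01091, and both were called in every fit that left out 1 library. Lyz2 was lost in 11 of 18 such fits, with adjusted p-values up to 0.1351. Pla2g2a was lost in 3, without WT replicate 1 of 25 weeks, with 2.88 in place of 5.84, and without WT replicate 2 or 4 of 55 weeks, with 5.61 and 5.45. S100a8 was lost in 8, most of all without WT replicate 3 of 25 weeks, which held its 2 counts. Without villin-PPARD replicate 3 of 55 weeks S100a9, at 6.96, and Reg3b, at 2.63, were called as well. From 10 to 25 weeks no tested member was called by edgeR, against 0.00632% of genes. The count at an unadjusted p under 0.05 was 1, that of DESeq2 1 and that of limma-voom 0, and Sftpd was the nearest with 2.53 ± 0.65 (SE) and an edgeR adjusted p of 0.2267.

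Families of the members are set against all genes tested at 55 weeks, of which 31.7% were higher and 27.6% lower, with a median log2 difference of 0.03. The lists that follow were chosen with earlier results of these data known. List genes near 0 in the other groups could be tested only through the 55-week villin-PPARD libraries. Counts of higher list genes and list medians at 55 weeks are therefore no support of their own. How many list genes this concerns was not counted. Of 5 other Reg genes 2 were tested, and Reg1, which lies between Reg3b and Reg3g, rose from 0.747 ± 0.217 to 173 ± 84.4 CPM, while Reg2 stood at 0.615 and 0.509 CPM. Of 11 other secreted phospholipases A2, 8 were tested and 4 were lower, with a list median of -0.45 on the log2 scale. Pla2g1b, a digestive form, fell from 10958 ± 4642 to 31.3 ± 12.6 CPM and Pla2g2c from 1.20 to 0.0524 CPM. Of 13 other S100 genes 11 were tested, with 5 higher and 1 lower, among them S100b, from 0.139 to 2.56 CPM, and S100a10, from 49.8 to 94.5 CPM. S100a11 and S100a14, at 225.6 and 108 CPM in villin-PPARD against 109 and 41.6 CPM in WT mice, were called higher at 10 weeks already.

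Acute-phase and other antimicrobial genes were read against the same 31.7% higher and 27.6% lower of all genes at 55 weeks. Of 17 acute-phase genes besides the members 9 were tested, with 5 higher, 2 lower and a median log2 difference of 2.25, where all genes had 0.03. Lrg1, a leucine-rich glycoprotein of neutrophils and liver, rose from 2.96 ± 0.91 to 115 ± 68.1 CPM, Hp, which codes for haptoglobin, from 0.142 to 2.99 CPM and Lbp, the lipopolysaccharide-binding protein, from 1.09 to 10.9 CPM. Hamp, the iron hormone hepcidin, fell from 2.87 to 0.167 CPM. Of 32 other antimicrobial effectors 17 were tested, with 13 higher, 2 lower and a median of 1.97. Pigr, which carries IgA across epithelium, rose from 55.4 ± 23.3 to 5728 ± 1308 CPM, and Wfdc2 from 122 to 479 CPM. The chitinase Chia1 fell from 8587 to 18.8 CPM. Of 16 soluble lectins 9 were tested, with 4 higher and a median of 0.46, and Dmbt1, a mucosal scavenger protein, rose from 804 ± 101 to 8149 ± 3766 CPM.

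Some of these genes were called between genotypes at 10 weeks. Duox2, which makes hydrogen peroxide at the epithelial surface, and Duoxa2 stood at 93.3 and 27.2 CPM in WT mice at 10 weeks. In villin-PPARD mice of that age they stood at 852 and 331 CPM, log2 differences of 3.19 and 3.60. The galactose-binding lectin Lgals9 stood at 493 and 1521 CPM at that age. Of 17 tested effectors 6 were higher and 2 lower at 10 weeks, against 17.9% and 16.2% of all genes.

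Genes that are known to induce the members, and those that receive them, were also read, against the share of all genes called. At 10 weeks that was 17.9% higher and 16.2% lower. It was 21% higher and 18.6% lower at 25 weeks, then 31.7% higher and 27.6% lower at the last age. Of 28 inducing cytokines and their receptors 26 were in the table and 22 tested, with 8 higher and 3 lower at 10 weeks. The next age had 13 higher and 2 lower, and the oldest mice 14 higher and 4 lower. Il22ra1, the receptor chain through which interleukin-22 acts on epithelium, rose from 0.732 to 6.48 CPM at 10 weeks, from 0.669 to 7.88 CPM at 25 weeks and from 0.851 to 25.0 CPM at 55 weeks. At 55 weeks Tnf rose from 0.159 to 8.76 CPM and Il1rn from 3.35 to 52.4 CPM. Of 18 tested transcription factors of the acute-phase response 13 were higher at 10 weeks. At 55 weeks 10 were higher, Cebpd from 9.0 to 21.9 CPM among them. Of 17 tested receptors and carriers 7 were higher and 3 lower at 55 weeks, with a median log2 difference of 0.12. Tlr2, a receptor for serum amyloid A and bacterial lipoproteins, rose from 37.0 to 235 CPM, and Cd14, which serves the same family of receptors, from 4.01 to 104 CPM. Slc22a17, described as a receptor of lipocalin-2, fell from 9.14 to 0.776 CPM. With library size alone as the scale, higher and lower calls at 55 weeks were 12 and 2 for the receptors and carriers, 7 and 2 for the squamous markers, 17 higher for the transcription factors and 2 higher and 4 lower for the phospholipases, and no gene called under TMM in these lists changed sign.

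**Figure D4:**
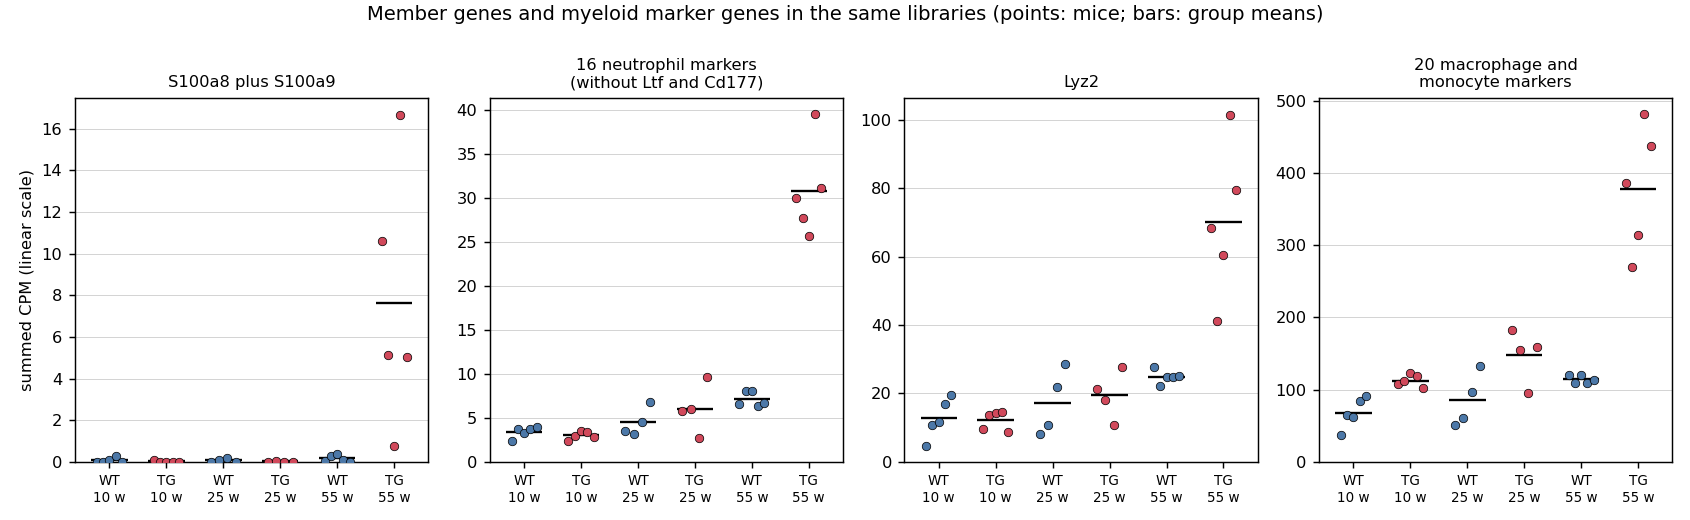
Summed CPM on linear scales in the 28 libraries for S100a8 plus S100a9, for 16 neutrophil markers without Ltf and Cd177, for Lyz2 and for 20 macrophage and monocyte markers, in WT (blue) and villin-PPARD (TG, red) mice. Points are mice and bars are group means. At 55 weeks the 16 neutrophil markers run from 25.6 to 39.5 CPM in villin-PPARD and from 6.34 to 8.06 CPM in WT mice, and the macrophage markers from 270.1 to 482 and from 110 to 120 CPM.

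Markers of other cells moved with the members at 55 weeks, and their part in the result was not tested. Of 18 neutrophil markers 9 were tested and all 9 were higher, against 31.7% of all genes. Those near 0 in the other groups could be tested only through the 55-week villin-PPARD libraries, so this count is no support of its own. The 18 markers summed to 16.3 to 25.9 CPM in WT and 182 to 1435 CPM in villin-PPARD mice. Most of that sum came from 2 genes that epithelia can express too, Ltf, which codes for lactoferrin and went from 8.80 to 740 CPM, and Cd177, from 5.49 to 66.2 CPM. They were set aside after their values were seen. The other 16 summed to 6.34 to 8.06 CPM in WT and 25.6 to 39.5 CPM in villin-PPARD mice, and Csf3r, the receptor for the neutrophil growth factor, went from 1.16 ± 0.28 to 5.76 ± 2.85 CPM. The granule genes Mpo, Elane, Camp and Ngp and the surface marker Ly6g were at 0 to 3 counts over a group for Mpo, Elane, Camp and Ngp and at 2 and 6 counts for Ly6g. Replicate 3 was the lowest villin-PPARD library for Csf3r, at 2.16 CPM, and for Ltf, at 146 CPM, as it was for the alarmins. The same library was also lowest for Pigr, at 3952 CPM, Reg1, at 39.5 CPM, and Cd14, at 66.4 CPM. This low position is thus not particular to neutrophil markers, and which cells account for it was not tested.

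Macrophage and lymphocyte markers were higher as well. At 55 weeks 31.7% of all genes were higher and 27.6% lower, and the lists below are read against these shares. The 20 macrophage and monocyte markers summed to 110 to 120 CPM in WT and 270.1 to 482 CPM in villin-PPARD mice at 55 weeks, and 15 of 18 tested were higher. Their lowest villin-PPARD library was replicate 2, which was also the lowest for Lyz2. At 10 weeks the sums were 37 to 90.5 CPM in WT and 102 to 122 CPM in villin-PPARD mice, but 3 of 18 tested markers were called higher, near the 17.9% of all genes, and the list median was 0.16 on the log2 scale. Of 14 markers of T, NK and B cells 8 were tested, and all 8 were higher at 55 weeks, Jchain from 24.5 to 174 CPM among them. Of 14 gastric epithelial markers 3 were higher and 9 lower. Of 18 tested squamous markers of the forestomach 6 were higher and 6 lower, near the shares of all genes, with the median at -0.19. The sum of the 25 listed, in which abundant genes weigh most, was higher in villin-PPARD mice. It ran from 563 to 978 CPM in WT and from 1223 to 1784 CPM in villin-PPARD mice at 55 weeks. At 10 weeks it ran from 246 to 407 and from 459 to 648 CPM. The 9 Paneth cell markers summed to 1.33 to 8.06 CPM in WT and 3.27 to 34.0 CPM in villin-PPARD mice at 55 weeks. Of the 3 tested, Lyz1 was higher and Pla2g2f, which is in the list but is not a defining marker of these cells, was lower. The defensins Defa17, Defa22, Defa24 and Defa30 had 0 counts in both groups. At 10 weeks the neutrophil list had 1 lower gene of 9 tested, Ltf, where 16.2% of all genes were lower.

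Within groups some members varied together from mouse to mouse. Deviations of log2 CPM from the group mean were correlated over the 28 libraries, as a description with no test, and low counts limit it for 5 members. Reg3b and Reg3g had an r of 0.81 with each other, and S100a8 and S100a9 one of 0.60. WT replicate 2 of 25 weeks had 0 counts of Reg3b and of Reg3g and lay far below its group in Reg3g. How far that library sets the correlations of these genes was not tested. Sftpd had an r between -0.03 and 0.38 with the other 8 members, and Pla2g2a one between -0.35 and 0.04. The genes most like Lyz2 over all genes tested were Serping1 at 0.96, C1s1 at 0.94 and Apoe at 0.93. For Sftpd they were Cldn7 at 0.83, Ceacam1 at 0.79 and Otop3 at 0.78, and for Reg3g Ly6g5b at 0.84 and Pald1 at 0.81, ahead of Reg3b. S100a8 was most like H2-Eb1, at 0.75.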

How the data were processed

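RNA of scraped corpus epithelial cells was sequenced as 75-base paired ends from poly-A libraries with a kit that does not mark strand, per the labels' protocols. The deposited values are whole-number counts per gene in 1 table of 28 libraries. Per the submitters' processing notes the authors used TopHat2 2.0.14, HTSeq 0.6.1 and DESeq2, with mm10. For the gene annotation, and for whether counting used strand, these sources give nothing.

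Columns were matched to mice by name. From the counts, edgeR 4.0.16 in R 4.3.3 fitted all 28 libraries as 6 groups (TMM, filterByExpr with a minimum count of 10, robust quasi-likelihood), with 10 contrasts and Benjamini-Hochberg adjustment at 0.05 over all genes tested. SE is the absolute log2 difference over the square root of F. Log2 CPM used a prior of 0.5 count. Ratios of counts carry exact 95% intervals that cover counting error only. The fit was tested on simulated data. Alternatives were DESeq2 1.42.0, limma-voom 3.58.1, other scalings and filters, a library group term, a replicate block, fits of the compared groups alone and leaving out each library. Samples are separate mice as far as the labels say, so p-values measure the spread between these mice.

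The members and the 17 lists were chosen with earlier results of these data known. Named from each list are the 4 genes with the lowest adjusted p between genotypes at 55 weeks and 2 more at 10 weeks, defining markers of other cells, and for each tested member the 3 genes of highest within-group correlation.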

Additional observations from a re-analysis of the deposited data

Results flagged for a closer look

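In 4 of the 41 groups of member values examined, 1 library stood apart by Dixon's criterion, and chance alone sets apart about 1 group in 20. Reg3g was 0.26 CPM in WT replicate 1 of 10 weeks, where the other 4 mice lay between 0.721 and 0.924, and 0.517 CPM in WT replicate 2 of 55 weeks, where the others lay between 1.65 and 1.90. Saa3 was 0 in villin-PPARD replicate 4 of 10 weeks, against 0.11 to 0.24 CPM in the others. Lcn2 was 0 in WT replicate 5 of 55 weeks, against 0.0739 to 0.136 CPM, which is 3 counts or fewer per library.

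The genotype difference changed with age by the edgeR interaction test. From 10 to 55 weeks it grew by 9.33 for S100a8, 7.05 for S100a9, 7.85 for Lcn2, 5.14 for Reg3g, 4.62 for Sftpd and 1.54 for Lyz2 on the log2 scale. From 25 to 55 weeks it grew by 9.78 for S100a8, 4.86 for Reg3g, 2.1 for Sftpd, 1.35 for Lyz2 and 5.84 for Pla2g2a. The fitted values of S100a8, S100a9 and Lcn2 rest on groups at or near 0 counts and are no bounds.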

How the results depend on the processing

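At 55 weeks the tested members kept their direction and call in every setting in which they passed the count filter. S100a8 fell below it without villin-PPARD replicate 1, 2, 4 or 5, and Pla2g2a without replicate 1, 3 or 4, so 7 to 9 members were called when 1 library was left out. Refitted without a filter, a setting added after seeing the data like those within a library group, S100a8 gave 6.68 to 7.52 and Pla2g2a 4.43 to 5.95 on the log2 scale, all called. No result reversed.

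Other counts moved. Members called higher in WT mice from 10 to 55 weeks were 2, but 1 with DESeq2 size factors, without 10-week replicates 4 and 5, by limma-voom or within the second library group, and 0 with no filter or with a library group term. Members whose genotype difference grew from 25 to 55 weeks were 5, but 2 with no filter, 3 with the library group term or the compared groups alone, and 8 by DESeq2. Those from 10 to 55 weeks were 6, but 2 without 10-week replicates 4 and 5 and 2 within the second library group. S100a9 was lost without WT replicate 4 of 10 weeks, Lcn2 without WT replicate 2, 3 or 5, and S100a8 without WT replicate 3 or 4 of 10 weeks or WT replicate 1 or 4 of 55 weeks. Saa3 was gained, at 4.15, without villin-PPARD replicate 3. From 10 to 25 weeks DESeq2 called 1. Between genotypes 1 member of 3 tested was called at 10 weeks with the compared groups alone, and at 25 weeks 2 with those groups alone, 3 by DESeq2 and 3 with the replicate block. In villin-PPARD mice from 10 to 25 weeks 0 were called with the compared groups alone or within the first library group.

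Genes called in villin-PPARD mice from 10 to 25 weeks were 445, but 914 with library size alone, 246 with no filter, 208 with the library group term, 123 without 10-week replicates 4 and 5, 1132 by DESeq2, 2961 by limma-voom and 2 within the first library group. In WT mice over these ages they were 2, but 0 with the library group term and 1 with library size alone, without 10-week replicates 4 and 5, with the compared groups alone or by limma-voom. From 10 to 55 weeks in WT mice they were 2007, but 626 with the library group term and 243 within the second library group. Between genotypes at 10 weeks they were 5380, but 3426 without 10-week replicates 4 and 5, 2803 within the first library group and 1891 within the second. The genotype difference changed from 10 to 25 weeks for 1 gene, but for 0 with library size alone, the library group term or the replicate block, 29 without 10-week replicates 4 and 5, 45 by DESeq2 and 76 by limma-voom. From 10 to 55 weeks it changed for 5748, but for 3636 within the second library group. The cause was not tested.

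Leaving out 1 library at a time gave 64 to 1862 genes in villin-PPARD mice from 10 to 25 weeks, 0 to 2 and 1203 to 1972 in WT mice to 25 and to 55 weeks, and 0 to 32 for the change from 10 to 25 weeks. Members called were 0 to 2 in WT mice to 55 weeks, 0 to 1 for the change from 10 to 25 weeks and 2 to 6 for that from 25 to 55 weeks. Replicate numbers did not pair the mice: 2 of 14 same-numbered pairs had a correlation over 0.1 (range -0.375 to 0.218) and 2 correlated best with their own number. With the replicate block the edgeR adjusted p at 25 weeks was 0.0301 for Reg3b and 0.03287 for Reg3g. Where both groups compared held 0 to 12 counts, depth limits what could be detected.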
